A study of Mus musculus with 2 samples.

Results

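Zymogen granule membrane and matrix proteins are represented here by 5 mouse genes, Zg16, Sycn, Gp2, Cuzd1 and Tmed6. They were chosen with their levels on these arrays in view, by gene symbol in the authors' table of log2 levels, and make up 5 of the 30894 genes with a named probe set. The values below therefore describe the genes and test nothing about them. Each gene had 1 probe set, of 20 probes for Zg16 and Tmed6, 21 for Sycn and Gp2, and 28 for Cuzd1.

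Zymogen granules are the storage vesicles in which pancreatic acinar cells, and in the stomach chief cells, keep digestive proenzymes until a stimulus triggers their release. Besides the enzymes, the granule of the acinar cell holds a matrix of proteins and proteoglycans along the inner face of its membrane, which is thought to help pack cargo. Zg16 encodes a lectin of this matrix that binds sulfated glycans and is also secreted by goblet cells of the intestine. Sycn encodes syncollin, a small protein attached to the luminal side of the granule membrane and linked to exocytosis. Gp2 encodes a glycoprotein held in the granule membrane by a lipid anchor, which also serves as a receptor for bacteria on intestinal M cells. Cuzd1 encodes a granule membrane protein with CUB and zona pellucida-like domains, the latter shared with Gp2. Tmed6 encodes a member of the p24 family, cargo receptors that shuttle between the endoplasmic reticulum and the Golgi, early in the secretory pathway.

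The study set 1 stomach of an Atp4bCre mouse, the control, against 1 stomach of an Atp4bCre; MIST1-LSL mouse, with 1 Affymetrix array each. Both mice were 12 weeks old and of a mixed background crossed back for about 10 generations to C57/B6, and both carried Cre under the promoter of Atp4b, a proton pump subunit of the parietal cell. MIST1-LSL is an allele from which Cre releases expression of MIST1, a transcription factor of secretory cells encoded by Bhlha15, so the comparison asks what differs once parietal cells are made to express MIST1. The tissue is the corpus in the sample labels and the whole stomach in the design text, and 1 label describes the second sample as control as well as MIST1-LSL, in which case the genotype field was followed. With 1 array per genotype nothing below has a replicate check, so no p-value and no error between mice can be given, and the number of arrays limits the precision.

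The arrays had medians of 4.64 (control) and 4.60 (MIST1-LSL) on the log2 scale over 41345 probe sets. The median of all these levels, 4.62, was used as a floor, since no detection calls were analysed here, and 17336 genes reached it on at least 1 array. Among these genes the median log2 difference, MIST1-LSL minus control, was -0.03, and the middle 95% lay between -0.63 and 0.68. Probe sets of the same gene differed with an SD of 0.205 in log2 difference over 500 genes, a measure of probe behaviour and not of mice. Bhlha15 itself was at 5.26 in control and at 5.30 in MIST1-LSL. The array labelled MIST1-LSL thus showed a Bhlha15 level only 0.04 higher on the log2 scale, which does not bear out the label. The stretch of its transcript that the probes cover is not given, so a transcript of the allele outside it would not be seen. MIST1-LSL below names the array so labelled, and every direction rests on that label. The parietal cell markers Atp4a and Atp4b and the chief cell markers Pgc and Cblif were at 10.93 or above on both arrays, whereas Cckbr, the gastrin receptor, was below the floor on both.

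The region before the transcription start is shown for the 4 of the 5 genes matched in RefSeq's promoter sequences (build GRCm38.p6), because MIST1 binds E-boxes, the motif CANNTG, and these genes were all higher on the MIST1-LSL array. Each sequence is the 250 bases before the start, 5′ to 3′ on the strand of the gene, with every CANNTG in capitals. They lie at chr7:119459273-119459522 on the minus strand for Gp2, chr7:28540635-28540884 on the plus strand for Sycn, chr7:131322293-131322542 on the minus strand for Cuzd1 and chr8:107065645-107065894 on the minus strand for Tmed6.
Gp2: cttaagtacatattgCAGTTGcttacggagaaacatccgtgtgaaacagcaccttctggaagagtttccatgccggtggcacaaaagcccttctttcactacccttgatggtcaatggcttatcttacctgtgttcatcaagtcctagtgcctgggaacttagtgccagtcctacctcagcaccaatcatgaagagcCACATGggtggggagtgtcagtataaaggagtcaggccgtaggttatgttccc
Sycn: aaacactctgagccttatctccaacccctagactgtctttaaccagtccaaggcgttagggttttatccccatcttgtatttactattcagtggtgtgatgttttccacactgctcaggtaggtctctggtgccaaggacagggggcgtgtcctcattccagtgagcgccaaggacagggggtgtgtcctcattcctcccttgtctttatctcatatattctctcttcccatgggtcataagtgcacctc
Cuzd1: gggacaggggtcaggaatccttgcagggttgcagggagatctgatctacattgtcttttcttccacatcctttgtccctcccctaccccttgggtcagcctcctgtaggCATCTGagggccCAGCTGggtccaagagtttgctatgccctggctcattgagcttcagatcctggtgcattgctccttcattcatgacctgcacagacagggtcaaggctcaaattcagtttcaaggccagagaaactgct
Tmed6: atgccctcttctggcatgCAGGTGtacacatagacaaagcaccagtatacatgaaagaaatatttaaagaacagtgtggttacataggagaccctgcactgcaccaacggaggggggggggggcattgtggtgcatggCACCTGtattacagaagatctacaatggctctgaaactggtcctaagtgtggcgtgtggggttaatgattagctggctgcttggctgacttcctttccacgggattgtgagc

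Both strands were searched in the full window of 300 bases, which runs 50 bases past the start. CANNTG is its own reverse complement and includes the other motifs searched. Gp2 held 2 matches, CAGTTG and CACATG, Cuzd1 held 2, CATCTG and CAGCTG, and Tmed6 held 3, of which 1 lay in the 50 bases not shown. Sycn held none. Of all 32851 windows, 72.3% held CANNTG, so a match was common. All 3 matches in Tmed6 were CACCTG or its reverse complement CAGGTG, found in 20.2% of all windows. The match CAGCTG of Cuzd1 occurred in 16.3% of windows. CATATG, present in 3.91% of windows, was in none of these 4. The matches describe the letters of these windows and show neither binding nor its absence.

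All 5 genes were higher on the MIST1-LSL array, and each difference was at least 2-fold, by which 0.969% of the 17336 genes above the floor were higher and 0.473% lower. Since the genes were chosen from these values, the count adds nothing to that background. The genes fell into a set of 3 (Zg16, Gp2 and Cuzd1) whose control level lay below the floor, and a set of 2 (Sycn and Tmed6) that were already above it in the control stomach. The first 3 entered the genes above the floor only through their MIST1-LSL level, so they had to differ. In whole tissue, more cells of a type and more RNA per cell cannot be told apart.

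Zg16 read 2.74 in control and 9.42 in MIST1-LSL. Its intensity on the linear scale was 6.70 in control and 686.2 in MIST1-LSL. The control level was far under the floor and the MIST1-LSL level far over it. The log2 difference of 6.68 corresponds to a 102.4-fold higher level and ranked 4 among the 17336 genes. A fold against a level below the floor has an uncertain size, because signal there was not shown to exceed background. With the control level raised to the floor, Zg16 was at least 27.9-fold higher, and with all genes treated so it ranked 8.

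Gp2 read 3.86 in control and 7.92 in MIST1-LSL, or 14.5 and 241.9 as linear intensity. The difference of 4.06 on the log2 scale was 16.6-fold, and at least 9.83-fold with the control level raised to the floor. Gp2 ranked 15, and 16 with all genes raised to the floor. Cuzd1, the other gene of this set with a zona pellucida-like domain, read 3.45 in control and 6.02 in MIST1-LSL, with intensities of 10.9 and 65.0. Its difference was 2.57 on the log2 scale, 5.95-fold, and at least 2.64-fold against the floor. It ranked 23, and 80 with all genes raised to the floor. Both genes lay under the floor in control and above it in MIST1-LSL.

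Sycn read 6.99 in control and 10.91 in MIST1-LSL, with intensities of 126.9 and 1922. Syncollin message was therefore measured above the floor in the control stomach, and its difference of 3.92, 15.1-fold, does not rest on a level below the floor. It ranked 16, and 12 with all genes raised to the floor. Tmed6 was high on both arrays, at 9.35 in control and 10.59 in MIST1-LSL, with intensities of 651.4 and 1544. Its difference of 1.25, 2.37-fold, was the smallest of the 5 and ranked 110 (98 with all genes raised to the floor), and 0.629% of genes above the floor had a larger one.

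**Figure D1:**
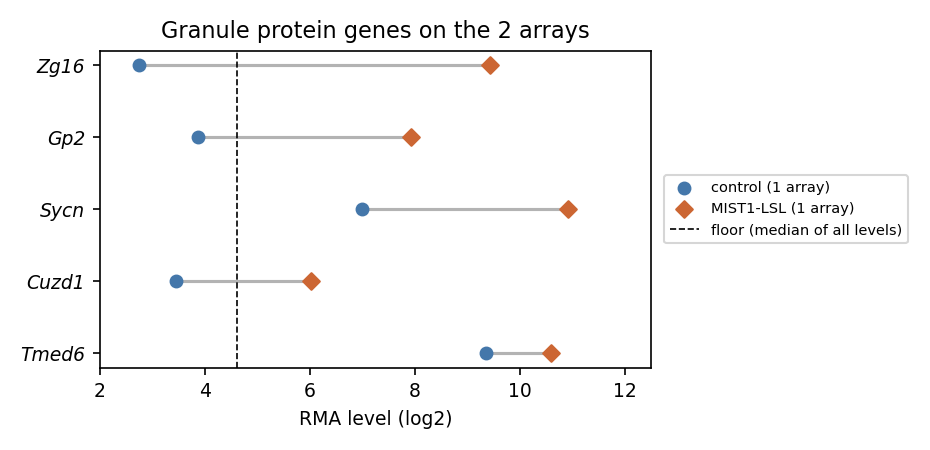
Levels of the 5 granule protein genes (log2, horizontal axis) on the control array (circles) and the MIST1-LSL array (diamonds), 1 array each, with the floor of 4.62 as a dashed line. Zg16, Gp2 and Cuzd1 cross the floor, from 2.74, 3.86 and 3.45 to 9.42, 7.92 and 6.02, while Sycn and Tmed6 lie above it on both arrays.

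In order of log2 difference the genes ran Zg16, Gp2, Sycn, Cuzd1 and Tmed6. Gp2 and Sycn were 0.14 apart, less than the SD of 0.205 between probe sets of 1 gene. The other neighbours in the order were 2.62 (Zg16 and Gp2), 1.35 (Sycn and Cuzd1) and 1.33 (Cuzd1 and Tmed6) apart. With control levels raised to the floor the order changed to Zg16 (4.80), Sycn (3.92), Gp2 (3.30), Cuzd1 (1.40) and Tmed6 (1.25). There Cuzd1 and Tmed6 were 0.15 apart, again less than that SD. At a 3-fold rule, passed by 0.386% of genes on the higher side, 4 of the 5 genes remained, Tmed6 being the exception. At a 1.5-fold rule, passed by 3.49%, all 5 did.

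**Figure D2:**
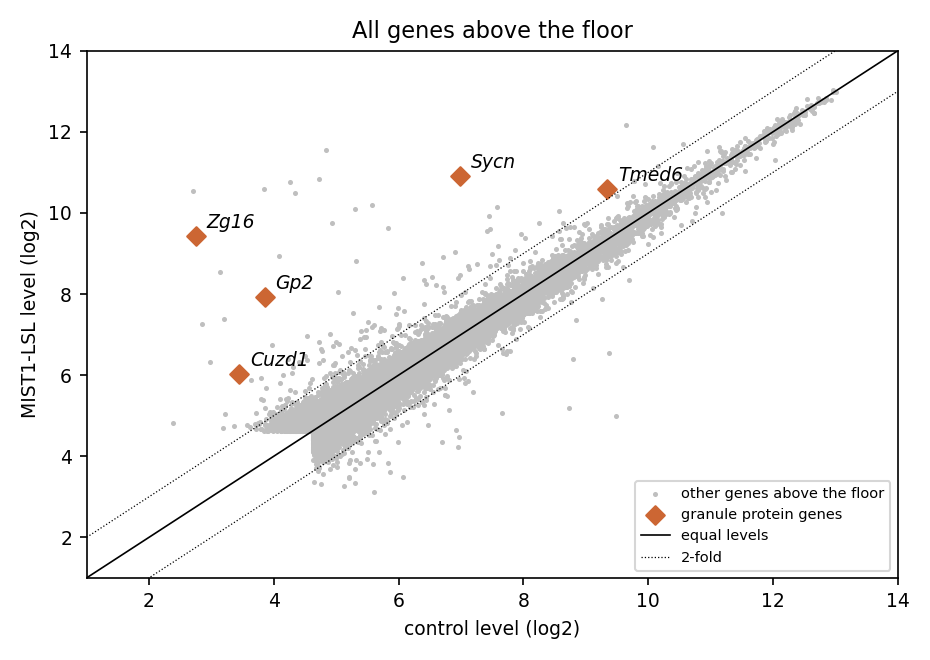
Level on the MIST1-LSL array against level on the control array (both log2) for the 17336 genes above the floor (grey) with the 5 granule protein genes (diamonds). The solid line marks equal levels and the dotted lines a 2-fold difference, and all 5 genes lie above the upper dotted line, Tmed6 nearest to it with a difference of 1.25.

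The genes whose log2 difference over the 2 arrays was nearest to that of Zg16 were Reg1, a secreted acinar lectin (6.71), Prss2, a trypsinogen (6.75), and Cpb1, carboxypeptidase B (6.51). Nearest to Gp2 were Serpini2, a serpin made by acinar cells (4.19), Sycn (3.92) and Cela2a, an elastase (3.80), and the same names surrounded Sycn. All of these encode secreted or granule products of the pancreatic acinar cell. Nearest to Cuzd1 were the predicted gene Gm5409 (2.56), the amylase gene Amy2a5 (2.52) and Cst8, of the cystatin family (2.47). Nearest to Tmed6 were Lce3d, of the epidermal late cornified envelope family (1.24), Gap43, a protein of growing nerve fibres (1.23), and Ces1f, a carboxylesterase (1.23). A gene near Tmed6 in difference is a loose likeness, because many more genes have differences of that size. Zg16, Gp2, Cuzd1, Prss2, Cpb1, Serpini2 and Gap43 were below the floor in control, so the sizes compared are uncertain. With levels raised to the floor Zg16 was 4.80 higher, Cpa1 4.82 and Reg1 6.71, so Cpa1 was then nearer to Zg16 than Reg1. The genes named as nearest thus describe the measured differences only.

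Most genes for the granule's cargo were also higher on the MIST1-LSL array. Of 26 genes for acinar digestive enzymes and their inhibitors and cofactors, 24 were above the floor, 21 of them were above 0 and 19 at least 2-fold higher. Their median log2 difference was 2.45, beside -0.03 for all genes and 3.92 for the 5 granule protein genes. The lipase Pnlip went from 2.70 in control to 10.55 in MIST1-LSL, Ctrl and Ctrb1, chymotrypsin-type proteases, were 6.15 and 6.10 higher, and Cpa1 and Cel, a carboxypeptidase and a lipase, 4.82 and 3.49 higher. Larger measured differences than that of Zg16 were found for 2 of the 24 genes, than those of Gp2 and Sycn for 9 each, than that of Cuzd1 for 11 and than that of Tmed6 for 19. With all levels raised to the floor, a setting chosen after seeing the data, these counts were 6 for Zg16, 10 for Gp2, 8 for Sycn, 18 for Cuzd1 and 19 for Tmed6.

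The enzyme genes could be divided in the same way by control level. In 7 of the 24 the control level was below the floor, and their differences ran from 2.24 to 7.84 with a median of 6.15, all 7 having passed the floor only through MIST1-LSL. In the other 17 the median was 2.14, with a range from -0.19 to 6.10, and 12 were at least 2-fold higher. The 3 enzyme genes below 0 were Clps, colipase (12.41 and 12.28), Prss3, a trypsinogen (4.81 and 4.64), and Pla2g1b, a phospholipase (12.30 and 12.11). Trypsinogens and amylases have near-identical copies, so the level of any 1 copy is uncertain.

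Among 6 other products of the acinar secretory pathway the median was 2.14 and 3 were at least 2-fold higher, against 0.969% of all genes. Reg1 read 4.84 in control and 11.55 in MIST1-LSL. Serpini2 read 3.21 and 7.39, and Reg2, a second Reg lectin, 2.97 and 6.34. Serpini2 and Reg2 were below the floor in control, so they had to differ. With levels raised to the floor they were 2.77 and 1.71 higher. Erp27, a chaperone of the endoplasmic reticulum, was 0.92 higher. Dmbt1, a mucin-like protein of the granule that also carries a zona pellucida domain, was 0.27 higher. Pdia2, a disulfide isomerase, was high on both arrays, at 10.12 in control and 10.20 in MIST1-LSL.

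Genes of the machinery that docks and fuses granules were read alongside. Of 21 genes 20 were above the floor, 9 of them above 0, with a median of -0.11. None was at least 2-fold different in either direction. Over all genes above the floor 0.969% were 2-fold higher and 0.473% lower, so a count of none is near that share. The same shares stand beside the 2-fold counts of the other lists below. Rab26 and Rab3d, GTPases of secretory granules, read 4.38 and 5.89 in control and 5.08 and 6.12 in MIST1-LSL. Rab27b, also a granule GTPase, differed by -0.41. The vesicle SNAREs Vamp8 and Vamp2 differed by 0.21 and -0.26, and the target membrane SNAREs Snap23, Stx3 and Stx4a by -0.16, -0.16 and -0.14. The SNARE regulators Stxbp2, Stxbp3 and Cplx2 differed by 0.05, -0.15 and -0.29. Syt1, a calcium sensor of nerve terminals, was 0.68 higher (4.22 and 4.89), and Syt7, a related sensor, differed by -0.13. Rab26 and Syt1 were below the floor in control, and with levels raised to the floor they were 0.46 and 0.27 higher.

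Tmed6 was set beside its own family. Of 11 p24 genes 10 had a named probe set, all above the floor on at least 1 array, and their median difference was 0.10 without Tmed6. The abundant members Tmed10 and Tmed7 read 10.26 and 9.64 in control and 10.02 and 9.30 in MIST1-LSL, differences of -0.24 and -0.34. Tmed9, Tmed4, Tmed1 and Tmed3 differed by 0.27, 0.26, 0.17 and 0.10, and Tmed8 and Tmed5 by -0.21 and -0.26. Tmed11, the other member with a measured difference past 2-fold, was not above the floor in control. Its level was 2.39 in the control stomach and 4.82 with MIST1-LSL, and with the control level raised to the floor its difference was 0.20, inside the range from -0.34 to 0.27 of the other 8 measured members besides Tmed6. Tmed6 was chosen for its level, so its distance from them is a description.

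**Figure D3:**
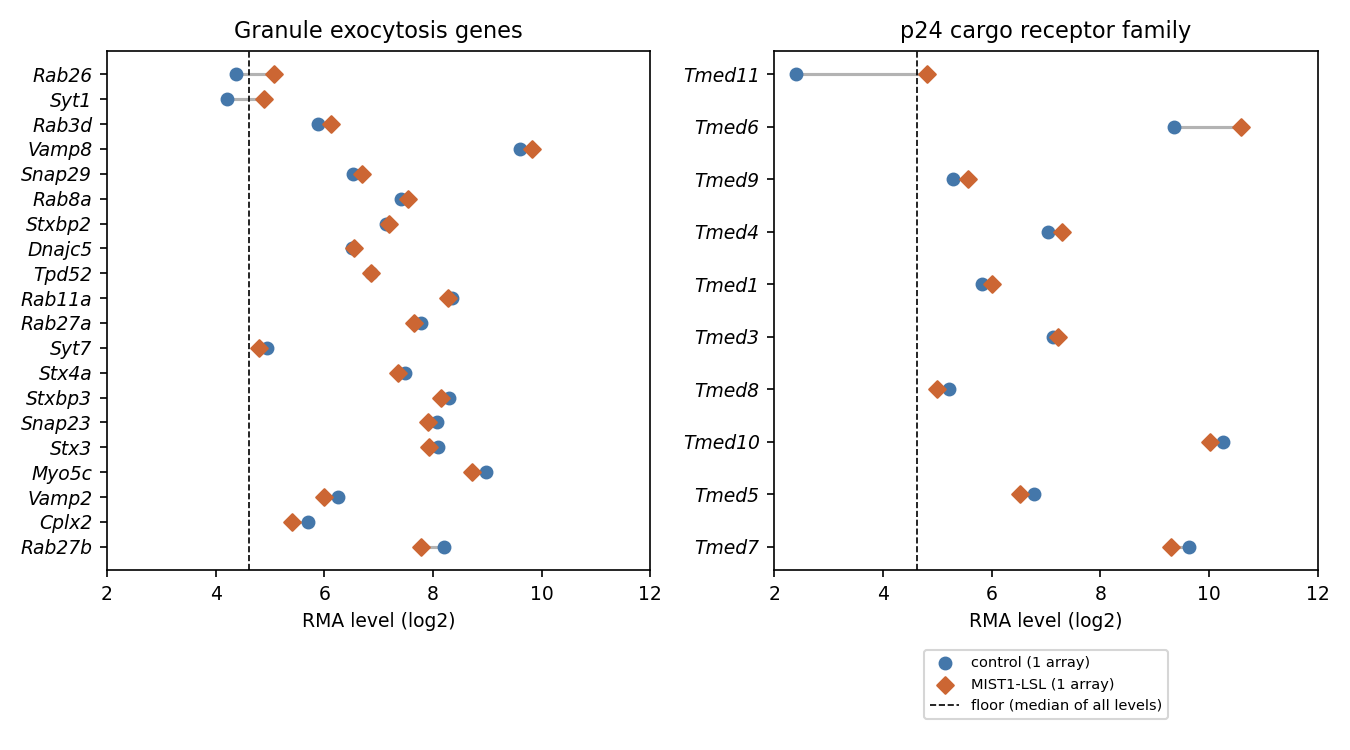
Levels (log2, horizontal axis) of granule exocytosis genes (left) and p24 family genes (right) above the floor, on the control array (circles) and the MIST1-LSL array (diamonds), ordered by difference, with the floor of 4.62 dashed. In the left panel no pair is 2-fold apart, the widest being Rab26 at 4.38 and 5.08, and in the right panel Tmed6 runs from 9.35 to 10.59, while the wide pair of Tmed11 starts under the floor at 2.39 and ends at 4.82.

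Gp2 and Cuzd1 were set beside other proteins with a zona pellucida domain. Of 13 such genes 8 were above the floor, and the 6 besides Gp2 and Cuzd1 had a median of -0.09 with none at least 2-fold different. Umod, uromodulin of the kidney and the closest relative of Gp2, read 4.97 in control and 4.60 in MIST1-LSL. Eng and Tgfbr3, co-receptors for TGF-beta, differed by 0.35 and -0.23, and Oit3 and Zp1 by -0.01 and -0.16. Umod is also the next measured gene after Gp2 along the chromosome.

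By the chromosomes given in the authors' table, Zg16, Sycn, Gp2 and Cuzd1 lie on chromosome 7 and Tmed6 on chromosome 8. Chromosome 7 held 8.00% of placed genes above the floor and 10.0% of those at least 2-fold higher, with a median difference of -0.0024. Of its 14 genes at least 2-fold higher, 4 were these chosen genes, so the 10.0% is no result about the chromosome. No measured neighbour of the 5 genes was 2-fold different, which is near the share over all genes (0.969% higher and 0.473% lower). The neighbours of Zg16, Kif22 and AI467606, differed by -0.03 and -0.21. Those of Sycn, Ifnl3 and Nccrp1, differed by 0.04 and -0.10, and those of Tmed6, Nip7 and Terf2, by -0.09 and -0.39. Beside Cuzd1, Cdcp3 was 0.42 higher, while Fam24b, and Gm23321 beside Gp2, were below the floor on both arrays and cannot show whether they differed.

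Other cells make some of these proteins, and their markers were read alongside. Goblet cells secrete Zg16, and of 8 goblet cell genes 7 were above the floor with a median of 0.12 and 1 at least 2-fold higher. That gene was Spink4, a secreted peptide of goblet cells, at 10.57 in control and 11.69 in MIST1-LSL. The goblet mucin Muc2 read 5.24 and 5.28, Tff3 was 0.89 higher, Clca1 0.63 higher and Fcgbp differed by -0.40. The summed intensity of the goblet genes was 7712 in control and 8963 in MIST1-LSL. M cells carry Gp2 on their surface, and of 7 M cell genes 6 were above the floor with a median of 0.06 and none 2-fold different. Of these 6, Marcksl1, Tnfrsf11a, Sox8 and Spib were above 0 (0.29, 0.17, 0.09 and 0.02) and Ccl9 and Anxa5 below it (-0.65 and -0.37), and Tnfaip2 was below the floor on both arrays. The summed intensity of the list was 750.1 in control and 605.0 in MIST1-LSL, a sum that is not even over the genes, since it holds Anxa5 (9.14 and 8.77), an annexin of many cell types. A floor set at the 75th percentile of levels gave medians of -0.51 for M cell and 0.63 for goblet cell genes. The part of either cell type in the differences of Zg16 and Gp2 was not tested.

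The 6 defining markers of the pancreatic acinar cell (Pnlip, Cpa1, Cpb1, Prss2, Ctrb1 and Cel) were between 3.49 and 7.84 higher. They are part of the enzyme list, in which 19 of 24 genes were at least 2-fold higher, against 0.969% of all genes. Clps, Prss3 and Pla2g1b of that list were below 0. Pnlip, Cpb1 and Prss2 were below the floor in control, so they had to differ. The summed intensity of the enzyme list was 13731 in control and 32676 in MIST1-LSL. This sum is uneven, since it holds Clps (12.41 and 12.28) and Pla2g1b (12.30 and 12.11). The part of acinar cells in the difference was not tested. Genes of the pancreatic islet and duct were also read. None of those above the floor was 2-fold different, near the share over all genes (0.969% higher and 0.473% lower). Those below the floor on both arrays cannot show whether they differed. The islet hormone genes Ins1, Ins2 and Iapp were below the floor on both arrays, Gcg read 5.01 and 5.13, and none of 5 islet genes above the floor was 2-fold different (median -0.31). Of 7 duct genes 5 were above the floor with a median of -0.27, among them Sox9 (6.38 and 6.26), and Cftr was below the floor on both arrays. The summed intensity was 284.2 in control and 244.1 in MIST1-LSL for the islet genes, and 2928 and 2544 for the duct genes.

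None of the acinar transcription factors above the floor was 2-fold different, which is near the share over all genes. Of 8 genes 7 were above the floor, with a median of 0.00. Ptf1a, which drives acinar enzyme genes, read 4.05 in control and 4.93 in MIST1-LSL, and its partner Rbpjl read 5.20 and 5.15. The control level of Ptf1a was below the floor, and raised to it the difference was 0.31. Gata6 differed by 0.35, and Xbp1, a regulator of the secretory endoplasmic reticulum, read 7.64 on both arrays.

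Genes of the stomach's own zymogen cell were not higher on the MIST1-LSL array. All 4 chief cell genes above the floor were lower in MIST1-LSL, by a median of -0.21 and none of them 2-fold, with the pepsinogens Pga5 and Pgc at -0.71 and -0.19, the intrinsic factor gene Cblif at -0.22 and the chitinase gene Chia1 at -0.12. Parietal cell genes had a median of -0.32 (-0.10 with no floor) over 10 genes, of which 3 were above 0 and 1 was at least 2-fold lower. That gene, the anion transporter Slc26a7, read 6.97 in control and 4.48 in MIST1-LSL. Enterocyte genes had a median of -0.07 over 6 genes, with the phosphatase gene Alpi 1.04 higher and Fabp2 at 10.10 and 10.00. Of 5 salivary gland genes with a named probe set, 4, including Bpifa2 and Dcpp1, were below the floor on both arrays, and the fifth, Dcpp3, differed by 0.20.

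**Figure D4:**
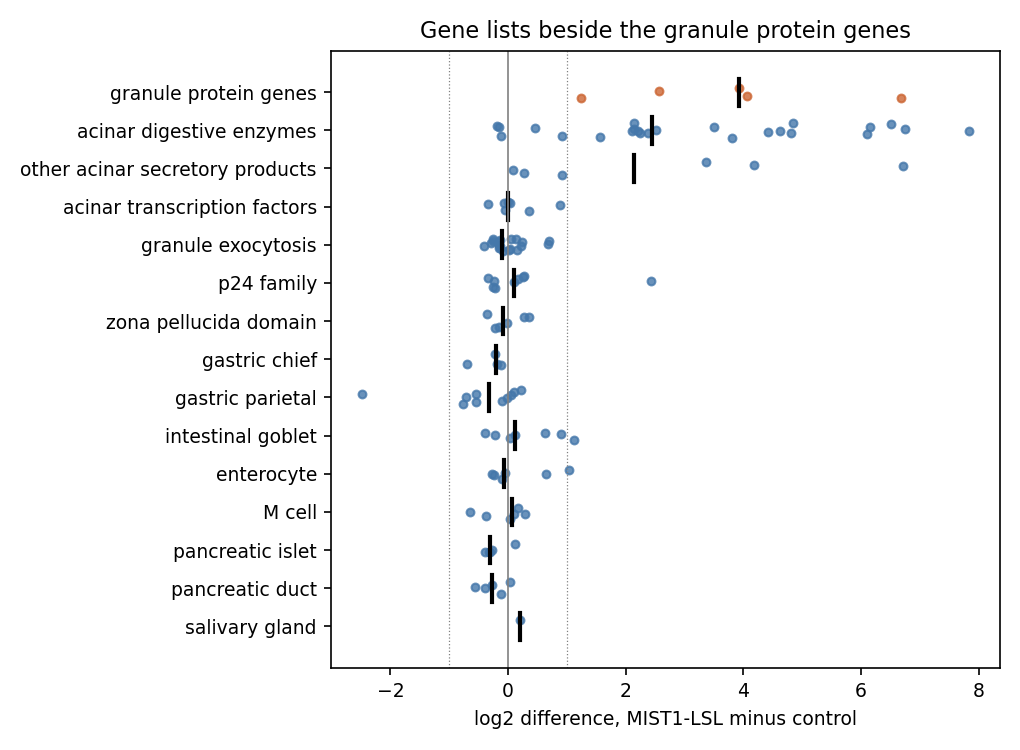
Log2 difference, MIST1-LSL minus control (horizontal axis), of each gene above the floor in 15 rows, with the granule protein genes on top and the gene lists, without those 5 genes, beneath. Each dot is 1 gene, the bar is the median of the row and the dotted lines mark a 2-fold difference. The medians of the granule protein genes (3.92), the acinar enzymes (2.45) and the other acinar products (2.14) lie to the right of the upper dotted line, and those of the other rows lie between the dotted lines.

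The authors' deposited table of gene ontology enrichment for the MIST1-LSL list gave the term zymogen granule 2 of 10 genes in the list (p = 0.611) and zymogen granule membrane 2 of 11 (p = 0.665). In a second enrichment sheet of the authors' deposited table, whose gene list is not named, the same terms had 5 of 10 (p = 0.0364) and 6 of 11 (p = 0.0132). The authors' deposited table gave exocytosis 32 of 178 genes (p = 0.734) in the first sheet and 25 of 178 (p = 0.990) in the second. For the broader term secretory granule the authors' deposited table gave 65 of 247 genes (p = 0.0058) in the first sheet and 45 of 247 (p = 0.837) in the second. These p-values are the authors', they compare genes and not mice, and which genes counted toward a term is not given. The share of all genes in either list is not given here, so the counts have no background beside them.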

How the data were processed

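Total RNA of 1 stomach per genotype was amplified, biotin-labelled and hybridised, per the labels' protocols, and amplification can alter relative levels. Per the submitters' processing notes, RMA and Partek made the deposited log2 levels. Settings, versions and the genome build: not given in the sources used here. Also deposited by the authors were the linear intensity and the ratio of MIST1-LSL to control, and enrichment tables with a p-value and a score per term. The 5 genes were read from the authors' workbook by symbol. For other genes, names were updated through the GRCm38.p6 gene table, with 21745 probe sets matched by transcript, 2499 by gene identifier, 4355 by symbol and 3872 left as in the file, while 8874 had no gene. A gene with several probe sets was represented by that of the highest mean level. The floor is the 50th percentile of all levels, and the size rule a log2 difference of 1.

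With 1 array per genotype no test was possible. The members, the gene lists and the alternatives were chosen with earlier results of these data known. Named genes were the 5 members, all genes of the exocytosis, p24 and zona pellucida lists above the floor, from each other list up to 5 genes with the largest and 2 with the smallest difference, the defining markers (a few genes under these rules are not reported here), the 3 genes nearest each member in difference, and their chromosomal neighbours. Pla2g1b was named after its value was seen. Alternatives were the series table's levels, median centring, quantile normalization, loess (span 0.3), other floors, averaged probe sets and other size rules. Raising all levels to the floor was added after seeing the data. The steps were checked on simulated data. Python 3.11.15, numpy 2.4.6, pandas 2.3.3 and statsmodels 0.14.6 were used.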

Additional observations from a re-analysis of the deposited data

How the results depend on the processing

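The log2 differences of the 5 genes moved by less than 0.205, the SD among a gene's probe sets, with the series table's levels, median centring, quantile normalization and loess. They ran from 6.67 to 6.72 for Zg16, 4.06 to 4.10 for Gp2, 3.92 to 3.96 for Sycn, 2.57 to 2.61 for Cuzd1 and 1.24 to 1.28 for Tmed6. Raising control levels to the floor, which by construction lowers the difference of genes below it, gave 4.80 for Zg16, 3.30 for Gp2 and 1.40 for Cuzd1. The 168 genes at least 2-fold higher and 82 lower became 358 and 198 with no floor, 605 and 574 at 1.5-fold and 67 and 24 at 3-fold, and the lower genes became 42 with the floor at the 75th percentile, all from a wider or narrower choice of genes. Of 97 list medians under an alternative, 90 moved by less than that SD. The other 7 were, with the floor at the 75th percentile, 3.36 for other acinar products, 2.57 for the zona pellucida list with Gp2 and Cuzd1, 0.63 for goblet, -0.51 for M cell and -0.10 for parietal genes, and with no floor -0.10 for parietal and -0.25 for salivary genes, where other genes enter the median. The goblet, M cell, parietal and salivary medians thus depend on the floor. No paired analysis was possible because each genotype had 1 array. Signal over background was not measured, so levels below 4.62 have no firm order.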
